A study of Mus musculus with 6 samples.

Results

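The transcripts described are those of 6 mouse genes, 4 aldo-keto reductases of the Akr1b subfamily (Akr1b3, Akr1b7, Akr1b8 and Akr1b10), their relative Akr1a1 and the sorbitol dehydrogenase gene Sord, out of 36842 genes in the table. They were taken by gene name. The set was built around Akr1b7, whose level in the same comparison was already known to differ widely between the groups, so the differences of the 6 genes are given as a description and with no test. All 6 lay above the filter on low values, a mean of 1 FPKM (fragments per transcript length and library total) over the 6 libraries, which 12241 genes passed.

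The libraries were labelled as GC-2spd(ts), an immortalised line from mouse spermatocytes, with testis as the source and the genotype as WT. Marker genes given further on do not match that label, and which cells or tissue gave the RNA was not tested. The group CP (3 libraries) had received 2 mM cyclophosphamide, an alkylating drug toxic to germ cells, for 24 h, and the group Sal_CP (3 libraries) had received the same dose together with 100 µM salidroside, a phenylethanoid glycoside of Rhodiola. Both groups therefore carried the drug, and cells without it are not analysed here. Whether the 3 libraries of each group are independent cultures is not stated, and p-values rest on a spread that may be technical. The read number behind each FPKM is unknown.

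Aldose reductase, encoded by Akr1b3, reduces glucose to sorbitol with NADPH, and sorbitol dehydrogenase oxidises sorbitol to fructose, which together form the polyol route. The route is known for fructose production in the male tract, and sorbitol dehydrogenase is a classical sperm enzyme. Akr1b7, first described as the mouse vas deferens protein, is an androgen-controlled reductase of the vas deferens epithelium that is also made in the adrenal cortex, where it reduces isocaproaldehyde released by steroid synthesis. Akr1b8 and Akr1b10 reduce aliphatic aldehydes and retinal, and Akr1a1 is the broad-range aldehyde reductase.

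The 4 Akr1b genes form a cluster of 120.7 kb on chromosome 6, from 34302434 to 34423142 in GRCm38 with the GENCODE M21 annotation. Akr1b3 (ENSMUSG00000001642, 34302434 to 34317478) lies on the minus strand. Akr1b8 (ENSMUSG00000029762, 34354119 to 34368463), Akr1b10 (ENSMUSG00000061758, 34384218 to 34396950) and Akr1b7 (ENSMUSG00000052131, 34412334 to 34423142) follow on the plus strand. Sord (ENSMUSG00000027227) lies on chromosome 2 from 122234749 to 122265340 and Akr1a1 (ENSMUSG00000028692) on chromosome 4 from 116636510 to 116651680. All 6 are annotated as protein-coding.

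Promoter sequences from RefSeq (GRCm38.p6) were matched for 5 of the 6 genes. The stretches just upstream of the plus-strand Akr1b genes are printed because Akr1b7 differed between the groups while its neighbours Akr1b8 and Akr1b10 were low in both. Each line is the plus strand, 5′ to 3′, from 250 to 31 bases before the RefSeq start, and capitals mark TGTTCT, a half-site bound by the androgen and glucocorticoid receptors. The lines cover chr6:34412112-34412331, chr6:34353896-34354115 and chr6:34383997-34384216 in that order.
Akr1b7: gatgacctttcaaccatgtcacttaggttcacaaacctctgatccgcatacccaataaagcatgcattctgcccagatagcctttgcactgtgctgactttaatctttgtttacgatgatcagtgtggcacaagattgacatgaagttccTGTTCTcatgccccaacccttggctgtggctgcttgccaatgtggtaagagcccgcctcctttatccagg
Akr1b8: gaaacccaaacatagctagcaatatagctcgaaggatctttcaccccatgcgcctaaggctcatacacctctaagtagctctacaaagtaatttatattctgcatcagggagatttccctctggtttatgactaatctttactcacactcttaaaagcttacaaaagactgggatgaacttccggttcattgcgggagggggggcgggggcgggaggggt
Akr1b10: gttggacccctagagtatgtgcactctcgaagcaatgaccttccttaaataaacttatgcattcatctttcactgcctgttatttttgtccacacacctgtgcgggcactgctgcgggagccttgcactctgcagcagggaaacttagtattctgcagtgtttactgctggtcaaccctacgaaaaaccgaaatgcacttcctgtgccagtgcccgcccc

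TGTTCT, searched on both strands, was found once in the Akr1b7 window, at positions -100 to -95 from the start, and not in those of Akr1b8, Akr1b10, Sord or Akr1a1. Of 27025 promoter windows of the same 220 bases, 14.5% held it. AAGGTCA, a half-site of the SF-1 type, was found once on the reverse strand in Akr1b7 (-248 to -242) and once in Akr1b10 (-215 to -209), against 3.66% of all windows. TGACNNNGC, the core of the NRF2 antioxidant element, occurred in 8.70% of all windows and in none of the 5. The interferon-stimulated response core occurred in 2.72% of all windows and in none of the 5. A loose NF-κB pattern occurred in 40.7% of all windows and, among the 5, in that of Sord, on the reverse strand at -81 to -72 and at -47 to -38. Both of these lie downstream of the GENCODE start of Sord, which is upstream of its RefSeq start. No match overlapped one of another motif. These are matches of letters and show no binding.

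In these libraries Akr1b7 was the Akr1b gene with by far the most RNA and the one that set the groups apart. It stood at 323, 219 and 124 FPKM in CP replicates 1, 2 and 3, and at 18.7, 17.9 and 27.3 FPKM in Sal_CP. Every Sal_CP library lay below every CP library, with 124 FPKM the lowest in CP and 27.3 FPKM the highest in Sal_CP. The means were 222 ± 99.6 and 21.3 ± 5.21 FPKM (SD, n = 3 each), a mean 10.4-fold higher in CP. On the scale of log2(FPKM + 1), where low genes are understated, the difference was -3.24 (SE 0.39), with a spread of 0.69 (SD) among CP and 0.32 among Sal_CP libraries. In bulk RNA, fewer cells that make a transcript and less of it per cell cannot be told apart.

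Akr1b3, the aldose reductase itself, stayed low in both groups. Its values were 4.09, 4.97 and 4.47 FPKM in CP and 4.41, 3.05 and 3.26 FPKM in Sal_CP, so that the groups overlapped through Sal_CP replicate 1. The difference in log2(FPKM + 1) was -0.28 (SE 0.24), and -0.12 after median of ratios rescaling or -0.17 after quantile normalization.

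Akr1b8 was lower still, at 2.50, 2.82 and 3.64 FPKM in CP and 1.86, 2.28 and 2.57 in Sal_CP. Only the highest Sal_CP library reached into the CP range, and the log2 difference was -0.30 (SE 0.24). It was -0.18 without CP replicate 3 or after quantile normalization, and -0.14 after median of ratios rescaling. Akr1b10 stood at 3.04, 2.68 and 3.12 FPKM in CP and at 2.74, 1.45 and 1.03 in Sal_CP. Here Sal_CP replicate 1 lay among the CP libraries, and the log2 difference of -0.57 (SE 0.27) was -0.82 without that library and -0.38 without Sal_CP replicate 3. Within each group Akr1b8 and Akr1b10 overlapped, so their order in level was not resolved.

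**Figure D1:**
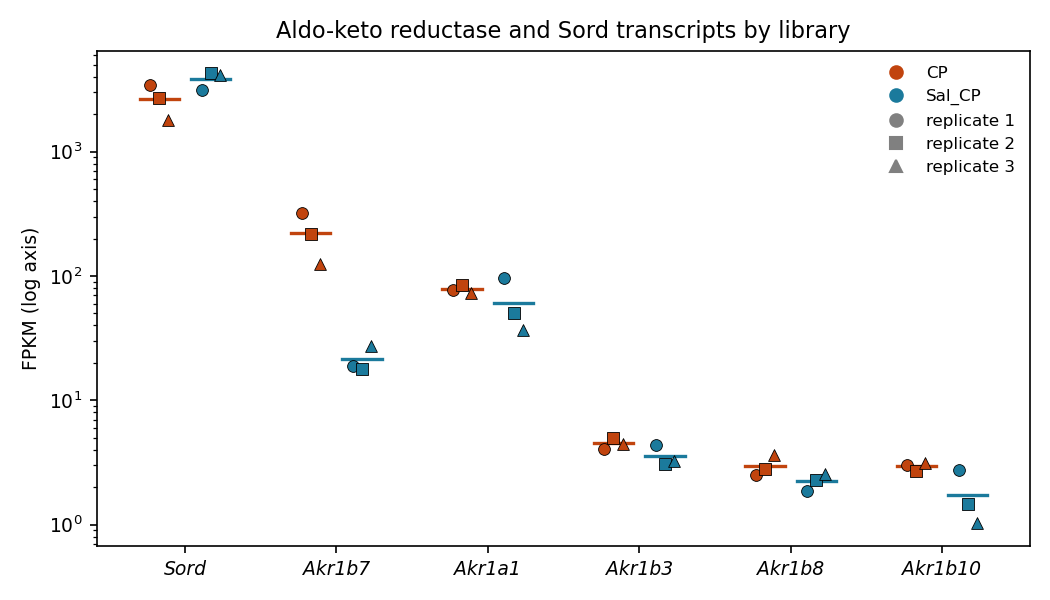
FPKM of the 6 genes (log axis) in each library of CP and Sal_CP, with the replicate number as the marker shape and the group mean as a bar. Akr1b7 lies at 124 to 323 FPKM in CP and at 17.9 to 27.3 FPKM in Sal_CP, and the groups overlap for the other 5 genes.

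Groups did not overlap for 1 of the 6 genes, Akr1b7, and across all genes tested this held for 17.3%, with 1230 genes lower and 883 higher in Sal_CP. limma called 9 of the 12241 genes at a Benjamini-Hochberg adjusted p below 0.05, or 0.0735%, all lower in Sal_CP, and Akr1b7 was chosen from among them. At an unadjusted p below 0.05 there were 10.7% of all genes, 6.77% lower and 3.96% higher in Sal_CP, the background for the unadjusted counts of the lists given further on. Leaving out Sal_CP replicate 1 brought the adjusted count to 0, while the limma count at an unadjusted p below 0.05 rose from 1314 to 4531. Leaving out Sal_CP replicate 2 brought the adjusted count to 1, which was higher in Sal_CP. Median of ratios rescaling brought it to 0, with 1742 genes at an unadjusted p below 0.05. The Akr1b7 difference itself lay between -3.61 and -2.92 over the 15 alternative settings, and all 6 genes kept their sign in every setting at which they were tested. The median of all genes tested was -0.12, with 60.5% below 0. Beside these stand the small differences of the paralogs, and the medians and counts below 0 of the lists given further on.

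The make-up of the Akr1b pool followed Akr1b7. The 4 genes summed to 333, 230 and 136 FPKM in CP and to 27.7, 24.7 and 34.2 FPKM in Sal_CP. Akr1b7 supplied 97.1, 95.4 and 91.7% of that sum in CP and 67.5, 72.5 and 79.9% in Sal_CP. The other 3 genes together gave 9.64, 10.5 and 11.2 FPKM in CP and 9.01, 6.78 and 6.85 FPKM in Sal_CP.

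Ratios within a library are nearly free of its FPKM total. The log2 ratio of Akr1b7 to Akr1b3, both as FPKM + 1, was 5.99, 5.20 and 4.52 in CP and 1.87, 2.23 and 2.73 in Sal_CP. The mean ratio differed by -2.96 for Akr1b3, -2.95 for Akr1b8, -2.67 for Akr1b10 and -2.78 for Akr1a1 as the partner. None of these ratios overlapped between the groups. Akr1b7 was chosen for its group difference and these partners differed far less, so the ratios mostly restate the Akr1b7 values. In CP, Akr1b7 was above Akr1a1 in all 3 libraries, and in Sal_CP in 0 of 3.

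**Figure D2:**
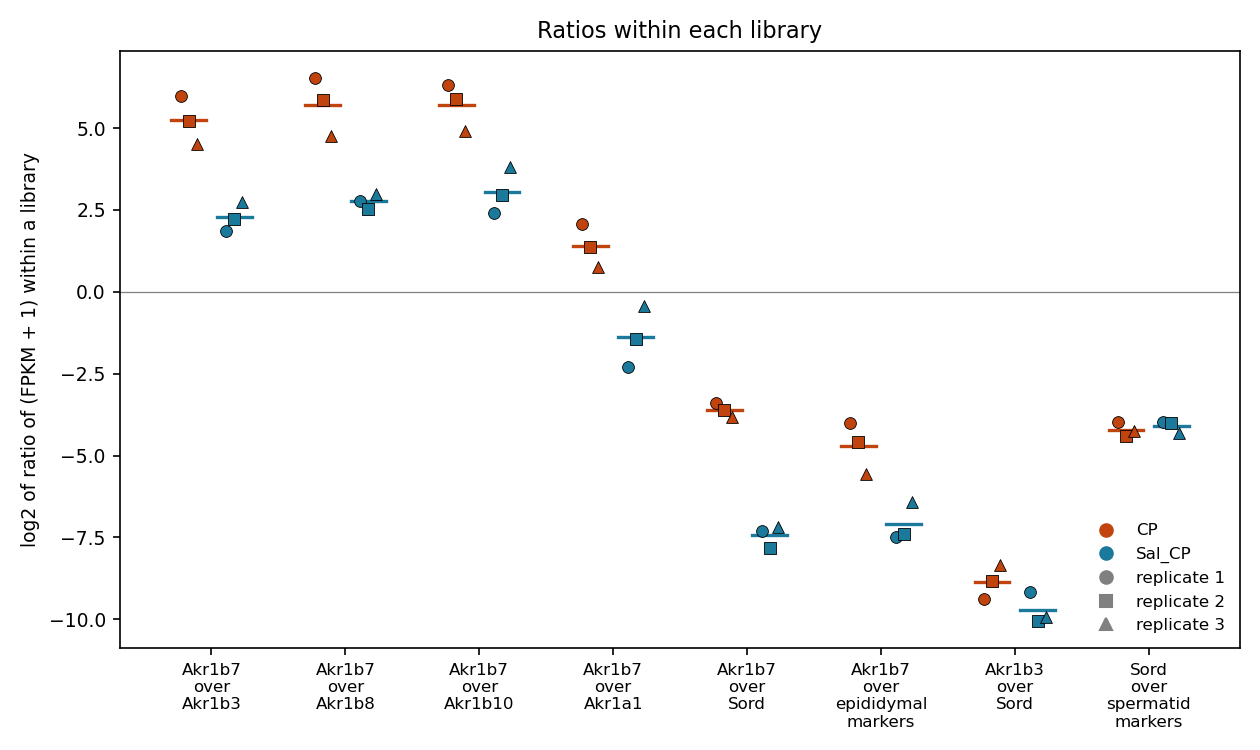
Log2 of the ratio of (FPKM + 1) of each pair named on the horizontal axis, within each library, with the group mean as a bar. The 6 ratios that have Akr1b7 as numerator do not overlap between the groups, and those of Akr1b3 to Sord and of Sord to spermatid markers overlap. The ratios with Akr1b7 mostly restate its own difference, for which it was chosen.

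The transcripts of the Akr1b genes are related in sequence, which matters for how reads are shared out between them. Akr1b7 was 84.2% identical to Akr1b10, 79.9% to Akr1b8 and 70.5% to Akr1b3 over aligned bases of the longest coding transcripts, and 62.5% to Akr1a1. The longest identical run was 59 bases with Akr1b10 and 52 with Akr1b8. No window of 100 bases of any of the 4 transcripts, nor of 150 bases, occurred in another of the 4, and 0 of 1182 windows of Akr1b7 did so. How reads that map to several genes were counted is not given in the sources used here, so a shorter match could still be split between Akr1b7 and Akr1b10. Gm13857, a processed pseudogene that overlaps the 3′ part of Akr1b7 on the other strand, lay at 0.261 to 1.23 FPKM.

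No neighbour of the cluster showed a difference like that of Akr1b7. Within 250 kb of the cluster, 12 other genes are annotated, of which 9 were listed and 4 tested, with 0 called by limma (0 also at an unadjusted p below 0.05) and a median difference of -0.08. Bpgm, the bisphosphoglycerate mutase of red cells, was the tested protein-coding gene on the Akr1b7 side. Its mean was 9.80 ± 1.82 FPKM with salidroside and 8.98 ± 1.61 FPKM without (log2 difference 0.11, limma adjusted p 0.833). Slc35b4, a nucleotide sugar transporter on the Akr1b3 side, had means of 2.43 ± 0.964 and 3.05 ± 0.462 FPKM (-0.27, limma adjusted p 0.608). The other 2 tested were the predicted non-coding genes Gm13856 (0.35, adjusted p 0.537 in limma) and Gm13855 (-0.35, adjusted p 0.565 in limma).

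Sord, the second enzyme of the polyol route, was among the most abundant transcripts of the table, 28th by mean FPKM. It stood at 3416, 2690 and 1783 FPKM in CP and at 3135, 4276 and 4114 FPKM in Sal_CP. Sal_CP replicate 1 lay below CP replicate 1, so the groups overlapped, while the mean was higher in Sal_CP, at 3842 ± 617 against 2630 ± 818 FPKM (SD, n = 3 each). The log2 difference was 0.58 (SE 0.34), and 0.33 without CP replicate 3, the lowest library, or 0.38 after quantile normalization. Sord was thus opposite in sign to all 5 reductases.

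Sord and aldose reductase were present at very unequal levels. For each FPKM of Akr1b3 there were 835, 541 and 399 FPKM of Sord in CP and 712, 1403 and 1264 in Sal_CP. The log2 ratio of Akr1b3 to Sord differed by -0.86 between the groups, which overlapped. Per FPKM of Akr1b7, Sord stood at 10.6, 12.3 and 14.3 in CP and at 168, 239 and 151 in Sal_CP. In CP the log2 ratio of Akr1b7 to Sord varied less between libraries (SD 0.22) than Akr1b7 alone (SD 0.69), since both were highest in replicate 1 and lowest in replicate 3.

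Akr1a1, the general aldehyde reductase, was evenly expressed in CP and uneven in Sal_CP. It measured 77.0, 84.7 and 72.9 FPKM in CP and 96.2, 50.5 and 36.9 FPKM in Sal_CP. Sal_CP replicate 1 was the highest of the 6 libraries and the other 2 Sal_CP libraries the lowest. The log2 difference was -0.46 (SE 0.38), with -0.84 when Sal_CP replicate 1 was left out and -0.16 when Sal_CP replicate 3 was. Median of ratios rescaling gave -0.26. Sal_CP replicate 1 also held the most leukocyte marker RNA, where the 10 markers, led by Cd68 and Tyrobp, summed to 357 FPKM against 49.6 to 145 in the other 5 libraries, and the part of this in the Akr1a1 value was not tested.

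Marker genes show which kinds of RNA the libraries held. Spermatid and epididymal RNA was abundant, which is not what the label of a spermatocyte line describes. The 14 spermatocyte markers summed to 798 to 1235 FPKM in CP and 1208 to 1781 FPKM in Sal_CP. Nearly all of this came from Pgk2 and Ldhc, sperm-type glycolytic enzymes whose transcripts persist into spermatids, with means of 982 and 284 FPKM over the 6 libraries, while 10 of the 14 averaged below 1 FPKM. The 15 spermatid markers summed to between 34023 and 81145 FPKM, led by Smcp, a sperm mitochondrial sheath protein, and the protamine Prm2. Of the 25 epididymal and vas deferens markers, 22 were found. They summed to 5177 to 5875 FPKM in CP and 2422 to 3570 FPKM in Sal_CP. Crisp1 and Spink8 were highest, with means of 2530 and 816 FPKM over the 6 libraries. Of the 22 found, 10 averaged below 1 FPKM, and Lcn9, Bsph1 and Defb41 were listed at 0 in every library. Sertoli markers, led by Amhr2 and Sox9, summed to at most 8.34 FPKM and Leydig markers, led by Insl3 and Star, to at most 5.68 FPKM, with Fshr and Hsd17b3 listed at 0. Transcripts of the mitochondrial genome made up 29.0 to 38.1% of all FPKM in Sal_CP and 36.6 to 50.4% in CP.

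General epithelial markers lay mostly on the same side of 0 as Akr1b7 but nearer to 0, and epididymal markers did so less uniformly. Crisp1, a secreted epididymal protein, had a log2 difference of -0.87 (limma adjusted p 0.421) and Spink8, a protease inhibitor of the epididymis, -1.49 (limma adjusted p 0.206). Of 12 tested epididymal markers 8 lay below 0, against 60.5% of all genes tested. Their differences ran from -1.49 to 0.56 with a median of -0.33, and 0 passed limma (4 lower at an unadjusted p below 0.05). Of 15 general epithelial markers 14 lay below 0 with a median of -0.95, and 0 passed limma (12 lower at an unadjusted p below 0.05). Krt18, a keratin of simple epithelia, stood at 80.2, 73.2 and 103 FPKM in CP and at 58.4, 40.9 and 22.7 in Sal_CP (-1.14, limma adjusted p 0.402). Cldn3, a tight junction claudin and the most abundant of the list, was the 1 above 0, at 486, 306 and 244 FPKM in CP and 403, 551 and 452 in Sal_CP (0.49, limma adjusted p 0.540). Fibroblast and smooth muscle markers, led by the matrix genes Dcn and Col3a1, lay below 0 in 6 of 6, with a median of -0.87 and 0 past limma (4 lower at an unadjusted p below 0.05). Proliferation markers, led by Pcna and Plk1, had a median of -0.12 over 8 genes.

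Akr1b7 was also set against the epididymal markers of its own library. Per 1000 FPKM of summed epididymal markers, there were 62.5, 41.7 and 21.2 FPKM of Akr1b7 in CP and 5.24, 5.69 and 11.3 FPKM in Sal_CP. The log2 ratio differed by -2.39, from -2.81 to -2.04 when each library was left out, and the groups did not overlap. Akr1b7 was chosen for a group difference larger than that of the marker sum, so a lower ratio in Sal_CP was bound to appear. The part of cell make-up in it was not tested. This ratio weighs Crisp1 most, and other epithelia that make Akr1b7 are not separated by it.

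Sord differed about as much as spermatid transcripts did. All 15 spermatid markers lay above 0, with a median of 0.49, close to the 0.58 of Sord, and 0 passed limma (1 higher at an unadjusted p below 0.05). The log2 ratio of Sord to the summed spermatid markers, a ratio chosen after the values were seen, was -3.99, -4.40 and -4.25 in CP and -3.97, -4.01 and -4.30 in Sal_CP. Its mean differed by 0.12, with overlapping groups, and by -0.12 after quantile normalization.

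The genes whose profile over the 6 libraries was most like that of Akr1b7 were sought by root mean square distance between log2(FPKM + 1) values centred on each gene, among 10373 other genes tested that have a full gene symbol. In order of distance they were Ifit3 (0.699), an interferon-induced antiviral protein, Steap4 (0.702), a metalloreductase, Clu (0.760), the chaperone clusterin, Lcn2 (0.765), an iron-sequestering lipocalin, and Slpi (0.765), a secreted protease inhibitor. The median distance to Akr1b7 over all genes was 1.65. Since Akr1b7 differed so much between the groups, this distance mostly measures the group difference, for which Akr1b7 was chosen. Genes with small differences, the relatives of Akr1b7 among them, were bound to lie far off. Akr1b10 lay at 1.46 (rank 1124), Akr1a1 at 1.54 (rank 2744), Akr1b3 at 1.56 (rank 3376), Akr1b8 at 1.57 (rank 3510) and Sord at 1.93 (rank 9345). Steap4 stood at 10.98, 7.48 and 4.07 FPKM in CP and at 1.70, 0.620 and 0.985 in Sal_CP. Slpi stood at 95.5, 64.6 and 56.2 FPKM in CP and at 14.2, 20.5 and 25.0 in Sal_CP. Steap4, Slpi and Ifit3 had, like Akr1b7, their highest CP level in replicate 1 and their lowest in replicate 3. Lcn2 and Clu did not, with Lcn2 at 14.5, 31.6 and 25.5 FPKM and Clu at 772, 443 and 742 FPKM in CP.

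Around Sord the distances were smaller, but they scale with how much a gene varies, and Sord varied less than Akr1b7. Psca, a surface antigen (0.0404), Bcl2l14, a BCL2 family member (0.0407), Ppm1a, a protein phosphatase (0.0420), Ube3b, a ubiquitin ligase (0.0437), and Ppp1r14bl (0.0438) were nearest, against a median of 0.589. Bcl2l14 stood at 857, 663 and 469 FPKM in CP and at 763, 1114 and 1024 FPKM in Sal_CP, which puts the 6 libraries in the same order as Sord does. Of the other members, Akr1b3 (0.591) and Akr1b8 (0.595) lay near that median. Akr1b10 (0.759, rank 8839) and Akr1a1 (0.785, rank 9179) lay farther off, and Akr1b7 was at rank 10371 of 10373.

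**Figure D3:**
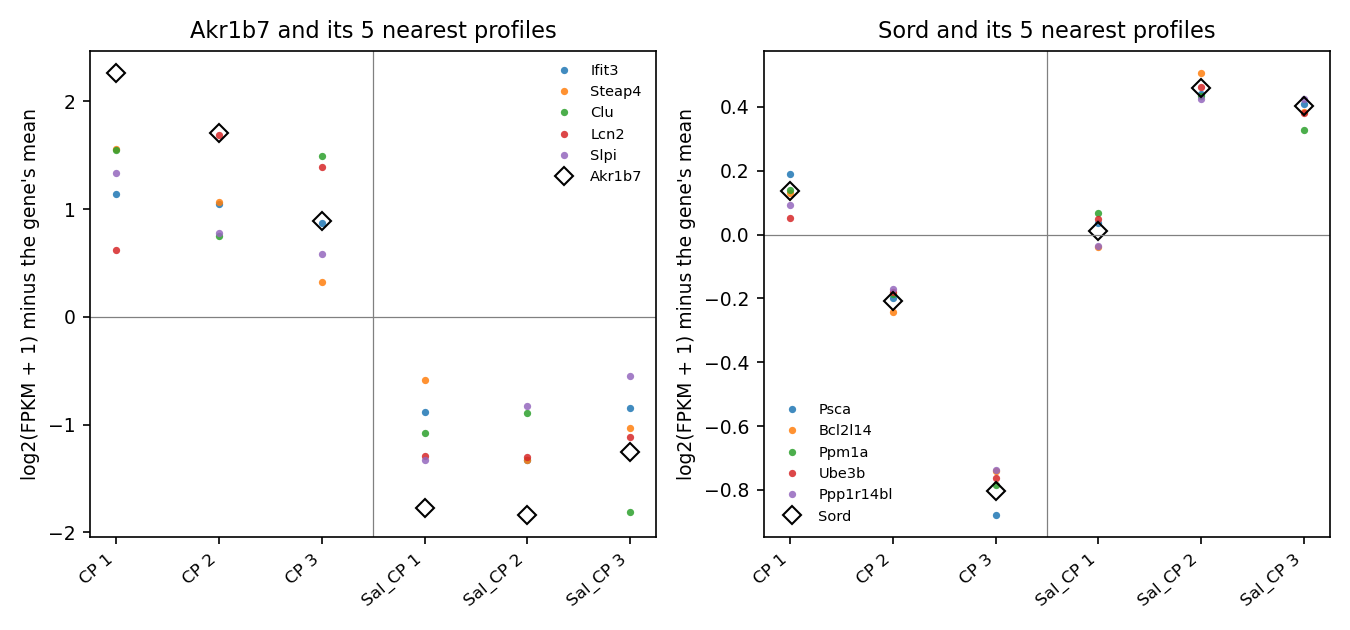
log2(FPKM + 1) of Akr1b7 (left) and Sord (right), as open diamonds, with their 5 nearest profiles, each centred on the mean of the gene over the 6 libraries. The genes near Akr1b7 split by group, as closeness to a gene with so large a group difference requires. Sord and its neighbours are lowest in CP replicate 3 and highest in Sal_CP replicate 2.

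Other aldo-keto reductases did not follow Akr1b7. Of 15 listed, 6 were tested, 3 on each side of 0, with a median of 0.01 and 0 called by limma (0 also at an unadjusted p below 0.05). That median changed sign in 5 of the 15 settings. Akr1c13, a hydroxysteroid dehydrogenase and the most abundant, stood at 22.3, 28.1 and 21.5 FPKM in CP and at 32.3, 19.4 and 11.5 in Sal_CP (limma adjusted p 0.689). Akr1e1, a reductase of anhydrofructose, had a log2 difference of -0.55 (limma adjusted p 0.470), and Kcnab2, a potassium channel subunit of the same fold, 0.43 (limma adjusted p 0.499). Akr1d1, the steroid 5β-reductase, was listed at 0 in every library.

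Genes around the polyol route showed no common direction. Of 21 genes for glucose entry, phosphorylation and fructose use, 13 were tested and 6 lay below 0, with a median of 0.04 and 0 called (1 higher at an unadjusted p below 0.05). Slc2a5, the fructose transporter GLUT5, stood at 5.57, 9.25 and 13.6 FPKM in CP and at 14.8, 16.6 and 17.9 in Sal_CP. The groups did not overlap, and the log2 difference was 0.80 (SE 0.33, limma adjusted p 0.444). Hk1, the hexokinase that competes with aldose reductase for glucose and has a sperm form, lay at 501 to 918 FPKM in CP and 653 to 1102 FPKM in Sal_CP (0.41, limma adjusted p 0.579). Khk, the fructokinase, had means of 1.87 ± 0.746 FPKM with salidroside and 2.90 ± 1.16 FPKM without (-0.43, limma adjusted p 0.526). Dcxr, xylulose reductase, had -0.58 (limma adjusted p 0.505) and Cryl1, gulonate dehydrogenase, -0.50 (limma adjusted p 0.492). That median changed sign in 5 of the 15 settings, 4 of them with a library left out.

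Osmolyte genes, which share with Akr1b3 the control by NFAT5 in the kidney, had 5 of 7 tested below 0 and a median of -0.40, with 0 called (1 lower at an unadjusted p below 0.05). Hspa1b, the inducible HSP70, stood at 14.5, 12.1 and 15.5 FPKM in CP and at 10.5, 5.65 and 6.33 in Sal_CP (-0.86, SE 0.30, limma adjusted p 0.421), without overlap. Pnpla6, a lysophospholipase, had -0.41 (limma adjusted p 0.482). Nfat5 had -0.29 (limma adjusted p 0.550) and Slc38a2, an amino acid transporter, -0.40 (limma adjusted p 0.514). Slc6a6, the taurine transporter, had 0.21 (limma adjusted p 0.796), with 20.1 FPKM in Sal_CP replicate 1 and 4.78 to 8.45 in the other libraries.

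Akr1b3 and Akr1b7 can make prostaglandin F2α, and the prostaglandin genes had the lowest median of the 7 pathway lists. Of 10 tested, 8 lay below 0 with a median of -0.91, 7 lower at an unadjusted p below 0.05 and 0 called by limma. Groups did not overlap for 7, all lower in Sal_CP, against 17.3% of all genes tested in either direction. Slco2a1, the prostaglandin transporter, stood at 5.71, 4.49 and 3.42 FPKM in CP and at 1.37, 1.47 and 0.964 in Sal_CP (-1.27, SE 0.25, limma adjusted p 0.117). Ptgis, prostacyclin synthase, had -1.10 (limma adjusted p 0.262) and Ptgs2, the inducible cyclooxygenase, -1.91 (limma adjusted p 0.213). Ptgds, a prostaglandin D synthase with the highest level of the list, lay at 129 to 190 FPKM in CP and 139 to 180 FPKM in Sal_CP (-0.03, limma adjusted p 0.962). Beside this list stand the general epithelial markers, with a median difference of -0.95 and 14 of 15 below 0, and their part in it was not tested. Their summed level, 645 to 853 FPKM in CP and 560 to 714 FPKM in Sal_CP, is mostly Cldn3, which lay on the other side of 0.

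Among other carbonyl and alcohol reductases 14 of 17 lay below 0 with a median of -0.13, 4 lower at an unadjusted p below 0.05 and 0 called by limma. Without Sal_CP replicate 1 the median was -0.45. Ptgr1, which reduces prostaglandins and unsaturated aldehydes, stood at 10.9, 11.3 and 7.82 FPKM in CP and at 4.49, 2.72 and 1.87 in Sal_CP (-1.49, SE 0.30, limma adjusted p 0.120). Cbr2, a lung-type carbonyl reductase, stood at 12.4, 4.40 and 6.15 FPKM in CP and at 2.97, 2.10 and 2.15 in Sal_CP (-1.24, SE 0.33, limma adjusted p 0.274). Neither pair of groups overlapped. Dhrs7, a short-chain dehydrogenase, had -0.60 (limma adjusted p 0.444).

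NRF2 targets, among which the human AKR1B10 is counted, had 15 of 18 below 0 with a median of -0.33, 0 called and 1 higher at an unadjusted p below 0.05. Leaving out Sal_CP replicate 1 moved that median to -0.61, and leaving out Sal_CP replicate 2 or 3 to -0.16 or -0.12. Osgin1, an oxidative stress-induced growth inhibitor, stood at 159, 241 and 74.7 FPKM in CP and at 235, 383 and 412 in Sal_CP (1.23, SE 0.44, limma adjusted p 0.429), with overlap. Taldo1, transaldolase, had -0.75 (limma adjusted p 0.470), Me1, malic enzyme, 0.58 (limma adjusted p 0.474), and Gstm1, a glutathione transferase at 70.3 to 144 FPKM, -0.48 (limma adjusted p 0.547).

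Steroidogenic genes, the setting of Akr1b7 in the adrenal cortex, were low. Only 4 of 14 were tested, all below 0, with a median of -0.23 and 0 called. The 1 gene lower at an unadjusted p below 0.05 in limma was Insl3, which encodes a hormone and no enzyme of steroid synthesis. Star, the cholesterol carrier of mitochondria, lay at 0.781 to 1.47 FPKM over the 6 libraries (-0.25, limma adjusted p 0.576). Insl3, a Leydig cell hormone, was listed at 0 in Sal_CP replicates 1 and 2, stood at 0.922 FPKM in replicate 3 and at 2.03, 3.18 and 1.85 FPKM in CP (limma adjusted p 0.153). Fdx1, the electron carrier adrenodoxin, had -0.20 (limma adjusted p 0.646).

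**Figure D4:**
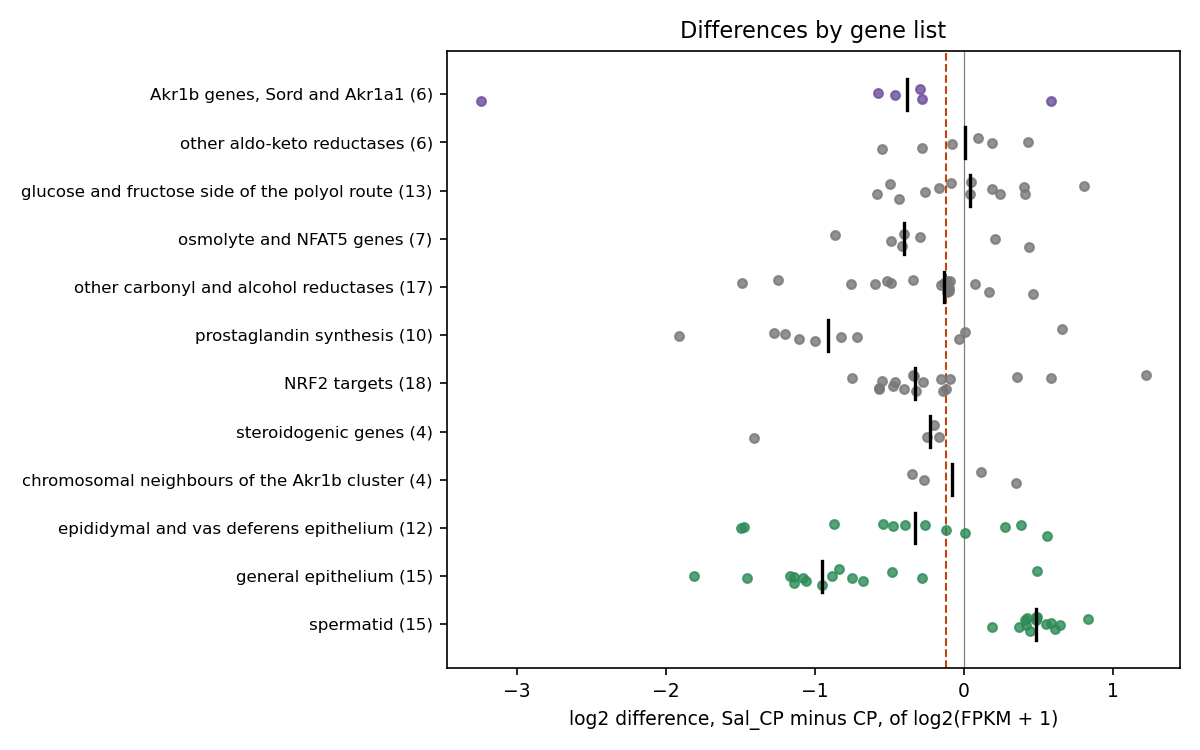
Difference in log2(FPKM + 1), Sal_CP minus CP, of each tested gene of the 6 described (purple), of the function and position lists (grey) and of 3 marker lists (green), with the number of genes in brackets, the list median as a bar and the median of all genes tested, -0.12, as a dashed line. Akr1b7 at -3.24 lies beyond every other gene drawn, and the prostaglandin and general epithelium lists have medians of -0.91 and -0.95.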

How the data were processed

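Expression was measured by RNA sequencing in 6 mouse libraries, 3 of Sal_CP and 3 of CP, with groups taken from the titles. The U-marked second strand was removed, which keeps strand, and read pairs of 150 bases were sequenced, per the labels' protocols. The deposited values are FPKM per gene and library, computed by the authors. Which aligner and counting tool made them is not given in the sources used here. Per the submitters' processing notes the genome was GRCm38. The deposited fold (ratio), log2, p-value and q-value columns of the authors were not used for any result, and the test behind the last of these is not known here. FPKM depend on the library total, so a large share of mitochondrial RNA lowers all other values. Depth is unknown, so no interval that needs it is given.

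FPKM were put on the scale log2(FPKM + 1), and genes averaging under 1 FPKM were left out. The comparison used limma 3.58.1 (R 4.3.3) with a variance trend, on 4 residual and 7.76 prior degrees of freedom, two-sided, with Benjamini-Hochberg adjustment over all 12241 genes and a threshold of 0.05. Of the gene IDs, 99.7% matched GENCODE M21. Transcripts were aligned with Biopython 1.88, and figures drawn with matplotlib 3.10.9. Lists are described by counts and medians, and no set test was run.

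The 6 genes, the 7 pathway lists and the 9 marker lists were chosen with earlier results of these data known. From a pathway list, called genes or else the 3 of smallest p were named, and those above 100 FPKM. From a marker list, the 2 highest and those at 0 were named, and for Akr1b7 and Sord the 5 nearest profiles. Slc6a6, Nfat5, Khk and Akr1d1 lie outside that rule and were named after their values were seen. Alternatives were another pseudocount, filters, scalings, limma options, the replicate number as a block and each library left out.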

Additional observations from a re-analysis of the deposited data

How the results depend on the processing

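For the 6 genes, 87 differences were computed under 15 alternative settings. Of these, 0 changed sign and 87 stayed within the spread between replicates (1 SD) of the reported value. Filters, limma options and the block cannot change a difference, and leaving out 1 of 3 libraries cannot move it by 1 SD. Only the other pseudocount and the scalings could have gone past that bound. limma called 0 genes without a filter (2249 at an unadjusted p below 0.05), 0 after median of ratios rescaling (1742) and 5 with quantile normalization, against 9, and 0 to 13 when each library was left out, where 0 (4531 at an unadjusted p below 0.05) came without Sal_CP replicate 1. The median of all genes moved from -0.12 to 0.01 after median of ratios rescaling and to -0.30 without Sal_CP replicate 1. With the replicate number as a block, limma called 280 genes. Of these, 2 were carbonyl reductases, 3 prostaglandin genes and 1 from the steroidogenic list, which includes Insl3. The labels give the replicate numbers no meaning, so the libraries were not taken as pairs. Deviations from the group means correlated at 0.196, -0.115 and -0.0644 for replicates 1, 2 and 3. Only for replicate 1 was the best match the same number. With 3 libraries a group this cannot settle whether the libraries were paired. Calls in the steroidogenic list were 0 to 1 with each library left out. The prostaglandin median was -0.51 without a filter, and the osmolyte median -0.14 at a mean of at least 5 FPKM. The median of the cluster's neighbours was 0.11 at that filter and 0.081 after median of ratios rescaling. The carbonyl reductase median lay between -0.45 and -0.10 with each library left out. The ratio of Sord to spermatid markers differed by -0.12 after quantile normalization. The causes were not tested. All settings that were planned were run. With 3 libraries a group, no group was large enough for a search for outlying libraries.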
